A study of Mus musculus with 19 samples.

Results

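The interferon-stimulated and nucleic acid sensing genes examined here are 40 mouse genes, listed by symbol, that respond to interferon or detect foreign RNA and DNA. A gene was kept if it had 10 or more counts in at least 4 of the 19 mice. All 40 symbols were found among the 54232 gene identifiers, and 37 of the 40 genes passed, while 18952 genes of the whole series passed the same filter. Oas2, Mx1 and Ifi44 did not pass, with 10 or more counts in 2 mice each. Striatal RNA came from 7 WT mice and from 4 mice each of KI-96, of KI-571 and of KI-FL, all 6 months old and on the C57/BL/6 background. KI-FL mice are HD140Q knock-in mice, which carry an expanded CAG repeat in the endogenous Htt gene and express full-length mutant huntingtin (HTT). In the other KI genotypes, KI-571 and KI-96, this mutant allele was also truncated by CRISPR/Cas9, so that an N-terminal fragment is encoded, and that of KI-96 is the shorter. On western blots of brain, however, the paper saw in both a stable HTT fragment as large as the smallest one of KI-FL mice. The KI mice were heterozygous and thus keep a normal Htt allele. The labels give neither the sex of a mouse nor the day of sacrifice.

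Interferons are secreted proteins that alert cells to infection. Sensors bind RNA or DNA of viruses, or RNA and DNA of the cell itself in the wrong place. Those in the cytosol signal through the adaptors MAVS (RNA) and STING (DNA), and receptors of the endosome such as TLR3 through other adaptors, to the transcription factors IRF3 and IRF7, which switch on the interferon genes. Secreted type I interferon binds its receptor and activates the complex named ISGF3, of which STAT2 and IRF9 are subunits and which binds the interferon-stimulated response element (ISRE) in front of antiviral genes such as Ifit1, Isg15 and Oasl2. In brain, microglia and astrocytes as well as neurons can respond in this way. Read counts of whole tissue do not separate more RNA per cell from more cells of a type.

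Promoters of these genes can hold the element that ISGF3 binds, and stretches of 6 of them are printed so that the element can be seen in front of genes given below. RefSeq windows of the build GRCm38.p6, 250 bases before to 50 bases after the start of each gene, were at hand for 30 of the 40 genes, of which 29 passed the count filter. The ISRE core was searched as GAAANNGAAA on both strands in the 250 bases before the start. It was found for 9 of the 29 genes (31.0%), namely Ifit1, Ifit3, Ifit3b, Isg15, Stat2, Oas1a, Rsad2, Bst2 and B2m, and for 3.46% of all 27025 genes with a window. The core of the GAS element, known from genes that respond to interferon gamma, was searched as TTCNNNGAA, which reads alike on both strands. It was found for 6 of the 29 genes (20.7%; Ifit2, Irf1, Oas1a, Bst2, Eif2ak2 and Psmb8) and for 8.13% of all genes. A match is only a match of letters. Capitals mark the ISRE core, which reads with TTTC in place of GAAA where it lies on the other strand. B2m, Stat2 and Ifit3 are shown as the genes with an ISRE core that had the highest levels in WT mice, and the other 3 were chosen after their values were seen.
B2m, chr2:122147523-122147582, plus strand: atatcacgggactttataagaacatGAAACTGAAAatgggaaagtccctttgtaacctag
Stat2, chr10:128270251-128270310, plus strand: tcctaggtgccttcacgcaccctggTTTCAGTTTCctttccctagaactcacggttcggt
Ifit3, chr19:34583348-34583441, plus strand: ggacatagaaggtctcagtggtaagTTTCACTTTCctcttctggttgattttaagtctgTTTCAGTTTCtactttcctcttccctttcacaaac
Ifit3b, chr19:34607744-34607837, plus strand: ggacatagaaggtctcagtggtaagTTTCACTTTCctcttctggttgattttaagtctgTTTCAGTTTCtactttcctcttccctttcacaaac
Ifit1, chr19:34640760-34640838, plus strand: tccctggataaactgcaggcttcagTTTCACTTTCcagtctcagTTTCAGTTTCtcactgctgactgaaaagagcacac
Isg15, chr4:156200850-156200921, minus strand: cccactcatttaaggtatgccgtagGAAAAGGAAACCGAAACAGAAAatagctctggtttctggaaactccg

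Ifit3 and Ifit3b, which lie near each other on chromosome 19, have the same bases over the 94 printed, and their longest transcripts are identical at 97.8% of 1700 aligned positions. Reads of one can therefore be counted on the other or left out. In Ifit1 the last of 2 cores ends 75 bases before the start and in Isg15 there are 3 overlapping cores. Ifit2, a relative of Ifit1 and Ifit3, had no ISRE core in its window. The letters are those of the reference genome and were not read from the mice.

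The reads on genes numbered 12669809 to 26388542 in a mouse (median 18202412). Levels are given as CPM, the counts of a gene relative to the total of the mouse, scaled by edgeR's TMM factors, and 3 counts corresponded to 0.114 to 0.237 CPM. KI-FL replicate 4 stood apart. In this mouse 3186 of the 18521 genes tested had no reads, against 10 to 222 in the other 18 mice, and 13 of the 37 members had none, against 0 in every other mouse. For the members, log2 fold changes of KI-FL against WT are therefore given with this mouse and, where named so, without it. The choroid plexus markers Ttr, Kl, Folr1, Clic6 and Kcnj13 together reached 5081 CPM in KI-571 replicate 2, 5311 CPM in KI-571 replicate 4 and 3013 CPM in KI-FL replicate 1, and 35.6 to 406 CPM in the other mice. Xist, the RNA of the inactive X chromosome, was at 886 to 1615 CPM in the 4 KI-96 mice, 1055 CPM in WT replicate 1 and 1210 CPM in KI-FL replicate 2, and at most 5.05 CPM elsewhere. Every KI-96 mouse and 2 others thus had high Xist, and no KI-571 mouse did. Between KI-96 and KI-571, genotype and Xist therefore cannot be told apart. Male and female mice were used in the study, and Xist may here stand for sex, which no label gives. In the other comparisons of KI-96, the fits with Xist as a covariate rest largely on WT replicate 1 and KI-FL replicate 2. KI-96 replicate 3 had 24.2% of its reads outside genes, where the others of its genotype had 11.8 to 12.7%. The difference in counts between mice was also measured as chi-square per degree of freedom. It was 71.4 to 121.1 between this mouse and the others of its genotype and 16.6 to 31.1 among those others. The tissue label was met by the striatal markers Drd1, at 160.6 to 313.6 CPM, and Ppp1r1b, at 887.5 to 2234 CPM, and the summed level of 12 microglial markers was 340.9 to 592.5 CPM in all mice. Of the leukocyte markers, Cd3e, Ms4a1 and Nkg7 had at most 3 counts in every mouse and Cd8a at most 7, while Cd79a reached 12 and S100a8 14 counts in WT mice, Ccr2 11 and S100a9 15 in KI-571 replicate 4 and Cd3g 17 in KI-FL replicate 4. The 5 red cell markers summed to 163 to 483 CPM in KI-571 mice, 79.5 to 214 in WT, 86.6 to 141 in KI-96 and 43.55 to 103 in KI-FL mice, and 2 of them (Hbb-bt and Alas2) passed the adjusted threshold in KI-571 against WT and 4 of them (also Hbb-bs and Hba-a1) in KI-571 against KI-FL. Cortical neuron markers were highest in WT replicate 3 (968.5 CPM) and KI-571 replicate 2 (385 CPM), against 10.9 to 109.6 CPM elsewhere. Apart from the comparisons without named mice below, the part of these differences in the results was not tested.

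The WT striatum held these transcripts at mostly low levels. Per kilobase of exons, the median of the 37 genes was 0.816 CPM, against 3.48 CPM for all genes tested, and 31 of the 37 lay under the latter. B2m, the light chain of MHC class I, came first with 54.97 ± 8.14 CPM per kb (SD, n = 7), above every mouse's level of any other member. Adar, which edits adenosine in double-stranded RNA, followed with 15.5 ± 1.75 CPM per kb, and Ifi27, a mitochondrial and nuclear membrane protein, with 14.96 ± 1.42 CPM per kb. The ranges of these 2 genes over mice overlapped with each other and not with the next gene. Below them came Irf3 (5.24 ± 0.718) and Stat2 (4.36 ± 0.597 CPM per kb), both present before any stimulus, and from there each gene overlapped in range with its neighbour in the order. Other interferon-induced genes lay along the whole order, with Lgals3bp in place 6, Ifit3 in place 7, Isg15 in place 14 and Ifit1 in place 20 of the 37. In place 32 Oasl2 was at 0.273 ± 0.104, and the last 4 were Irf7 at 0.232 ± 0.0819, Usp18 at 0.207 ± 0.0539, Zbp1 at 0.153 ± 0.0460 and Oas1a at 0.145 ± 0.101 CPM per kb. For these lengths the exons of all annotated transcripts were merged. Those of Irf7 form 1 unbroken block of 3776 bases over the whole gene, which lowers its level per kb. Of the 3 genes left out by the filter, Oas2 was at 0.0740 ± 0.0390, Mx1 at 0.0402 ± 0.0275 and Ifi44 at 0.0315 ± 0.00912 CPM per kb.

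**Figure D1:**
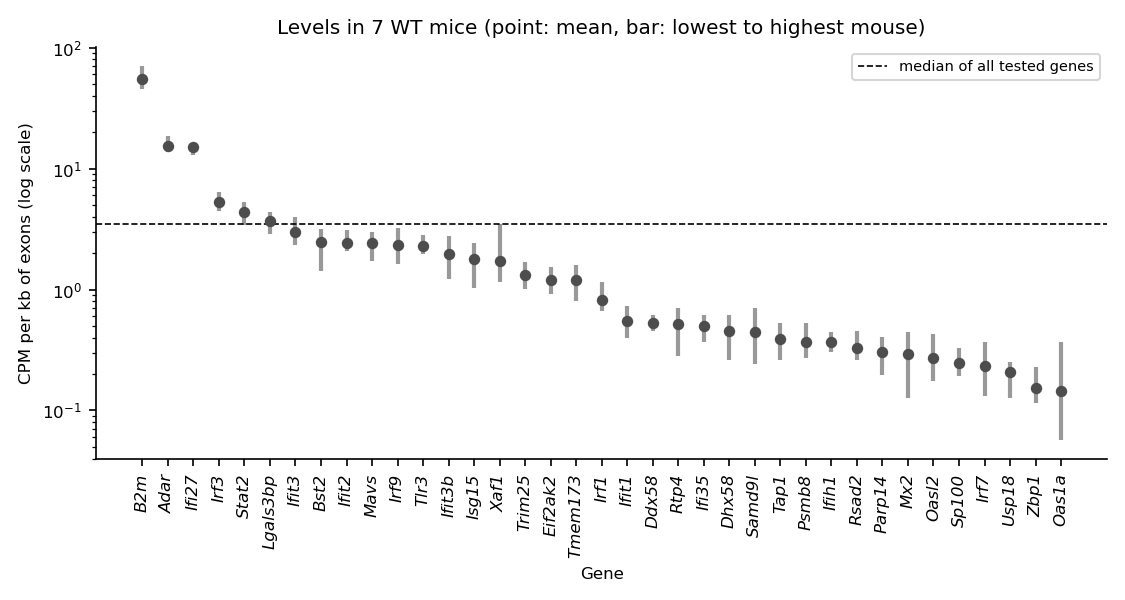
Level of each of the 37 genes in the 7 WT mice, in CPM per kilobase of exons on a log scale. Points are means, bars run from the lowest to the highest mouse, and the broken line is the median of all genes tested, 3.48 CPM per kb. Only B2m, Adar and Ifi27 have their whole range above 10 CPM per kb.

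Whether mutant HTT encoded at different lengths is accompanied by an interferon response was asked by comparing the 4 genotypes gene by gene. None of the 37 genes had an adjusted p under 0.05 (quasi-likelihood test of edgeR, adjusted after Benjamini and Hochberg over all genes tested), neither against WT nor between KI genotypes nor in a test of any difference among the 4 genotypes. Of all genes tested, 0.027% passed in KI-96 against WT, 0.0324% in KI-571 against WT, 0.194% in KI-FL against WT, 0.0054% in KI-96 against KI-571, 0% in KI-96 against KI-FL, 0.0864% in KI-571 against KI-FL and 0.14% in the test of any difference. With so few calls among all genes, 0 of 37 is close to the background. DESeq2 called Lgals3bp in KI-571 against WT and Ifit1 in KI-96 and in KI-571 against KI-FL, and both genes in the test of any difference, as given beside these genes below.

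Before adjustment, 7 of 37 members (18.9%) had p under 0.05 in KI-96 against WT, where 7.45% of all genes did. All 7 were higher in KI-96 (Irf7, Adar, Ifit1, Ifit3, Oasl2, Usp18 and Lgals3bp), a direction shown by 4.36% of all genes. In KI-571 against WT, 7 members (18.9%; background 7.72%) had p under 0.05, again all higher (Ifit3, Oasl2, Bst2, Ifi27, Ifi35, Lgals3bp and Parp14; background 3.89% in that direction). In KI-FL against WT the number was 6 (16.2%) and the background 16.7%, so that the members were not more frequent than other genes. Of these, Ifit3, Oas1a and Lgals3bp were higher (background 7.89%) and Ifit1, Ifit2 and Xaf1 lower (background 8.84%). Unadjusted p-values under 0.05 are no calls, since none withstood the adjustment over all genes. These numbers turned on which mice and covariates were used. With WT replicates 1 to 4 as the only WT mice, they were 2, 3 and 2 in KI-96, in KI-571 and in KI-FL against WT. Of all genes it was then 2.91, 4.13 and 8.5%. In KI-96 against WT the number was 1 without KI-96 replicate 4 (13.2% of all genes tested then) and 6 without KI-96 replicate 3 (6.58% of all genes). It was 0 with Xist as a covariate (1.17% of all genes) and 11 without KI-FL replicate 4 (10% of all genes). In KI-571 against WT it was 3 without KI-571 replicate 3 (6.99% of all genes) or without WT replicate 6 (6.21%), and 4 without KI-571 replicate 4 (9.52%). In KI-FL against WT it was 3 without WT replicate 2 (16% of all genes) and 4 without WT replicate 4, 5 or 7, KI-571 replicate 3 or KI-FL replicate 4 (13.4 to 16.1%). In the test of any difference, 7 members (18.9%) had an unadjusted p under 0.05 and 11.7% of all genes.

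The direction of the fold changes against WT was counted next. In KI-96 mice 29 of the 37 genes were higher than in WT, with a median log2 fold change of 0.26 against -0.015 over all genes. In KI-571 mice 30 of 37 were higher, with a median of 0.32 against -0.009 over all genes. In KI-FL mice 12 were higher and 25 lower, with a median of -0.26 against -0.03 over all genes. Beside this, all 6 oligodendrocyte markers and 5 of 6 astrocyte markers had lower means in KI-FL than in WT, with median log2 fold changes of -0.23 and -0.37 and no adjusted p under 0.05, and their part was not tested. Summed, the astrocyte markers were at 937.6 to 946.4 CPM in KI-FL and 894.2 to 1283 CPM in WT mice, and the oligodendrocyte markers at 9784 to 11350 and 10400 to 14780 CPM. Each of these 3 comparisons uses the same WT mice. The medians changed without single mice and with Xist in the model, which nearly coincides with the KI-96 genotype. Without KI-96 replicate 4 the KI-96 median was 0.14, and with the log2 level of Xist as a covariate it was 0.053 with 21 genes higher and 16 lower. Without the 2 KI-571 mice and the KI-FL mouse with high choroid plexus markers the KI-571 median was 0.11 (26 higher, 10 lower), and without KI-FL replicate 4 the KI-FL median was -0.14 (15 higher, 22 lower).

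**Figure D2:**
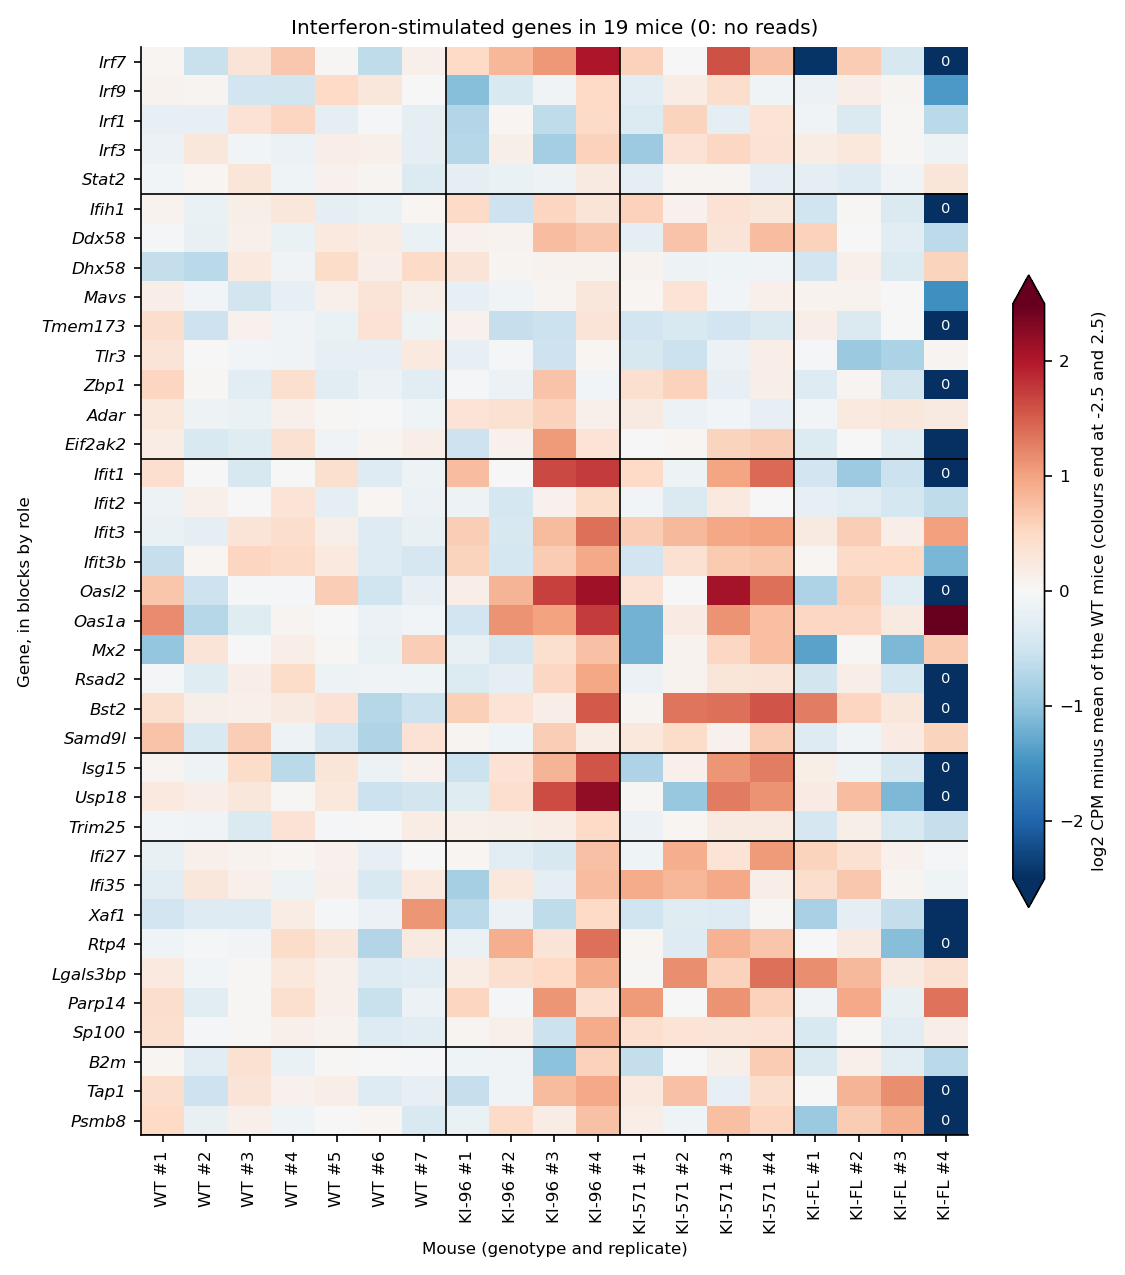
Level of each of the 37 genes (rows, in blocks by role) in each of the 19 mice (columns), as log2 CPM minus the mean of the WT mice, with red for higher and blue for lower. A 0 marks a gene with no reads in that mouse, which occurred 13 times in KI-FL replicate 4 and in no other mouse, and 16 to 24 genes were above the highest WT mouse in replicates 3 and 4 of KI-96 and of KI-571, against 3 to 11 in the other KI mice.

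Mice of a genotype differed from each other. The mean log2 CPM of the 37 genes, as a difference from the mean of the WT mice, was -0.071, 0.067, 0.337 and 0.809 in KI-96 replicates 1 to 4, and -0.040, 0.193, 0.488 and 0.530 in KI-571 replicates 1 to 4. It was -0.152, 0.177, -0.157 and -1.545 in KI-FL replicates 1 to 4 and between -0.175 and 0.109 in the 7 WT mice. Replicates 3 and 4 of KI-96, replicates 2, 3 and 4 of KI-571 and replicate 2 of KI-FL lay above the WT range, KI-FL replicate 4 lay below it and the others inside. Above the highest WT mouse lay 7, 6, 16 and 24 of the 37 genes in KI-96 replicates 1 to 4, where 18.7, 16.4, 25.5 and 15% of all genes did (18.9, 16.2, 43.2 and 64.9% of the members). In KI-571 replicates 1 to 4 it was 6, 11, 18 and 19 (16.2, 29.7, 48.6 and 51.4%) against 21.0, 17.6, 16.2 and 15.2% of all genes, and in KI-FL replicates 1 to 4 5, 9, 3 and 7 (13.5, 24.3, 8.11 and 18.9%) against 18.8, 18.3, 18.4 and 25.8%. A WT mouse had 1 to 13 members above the highest of the other WT mice, with 13 (35.1%; all genes 13.1%) in WT replicate 1 and 10 (27.0%; all genes 14.8%) in WT replicate 4. Of the 37 genes, 29 had their highest KI-96 value in replicate 4.

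**Figure D3:**
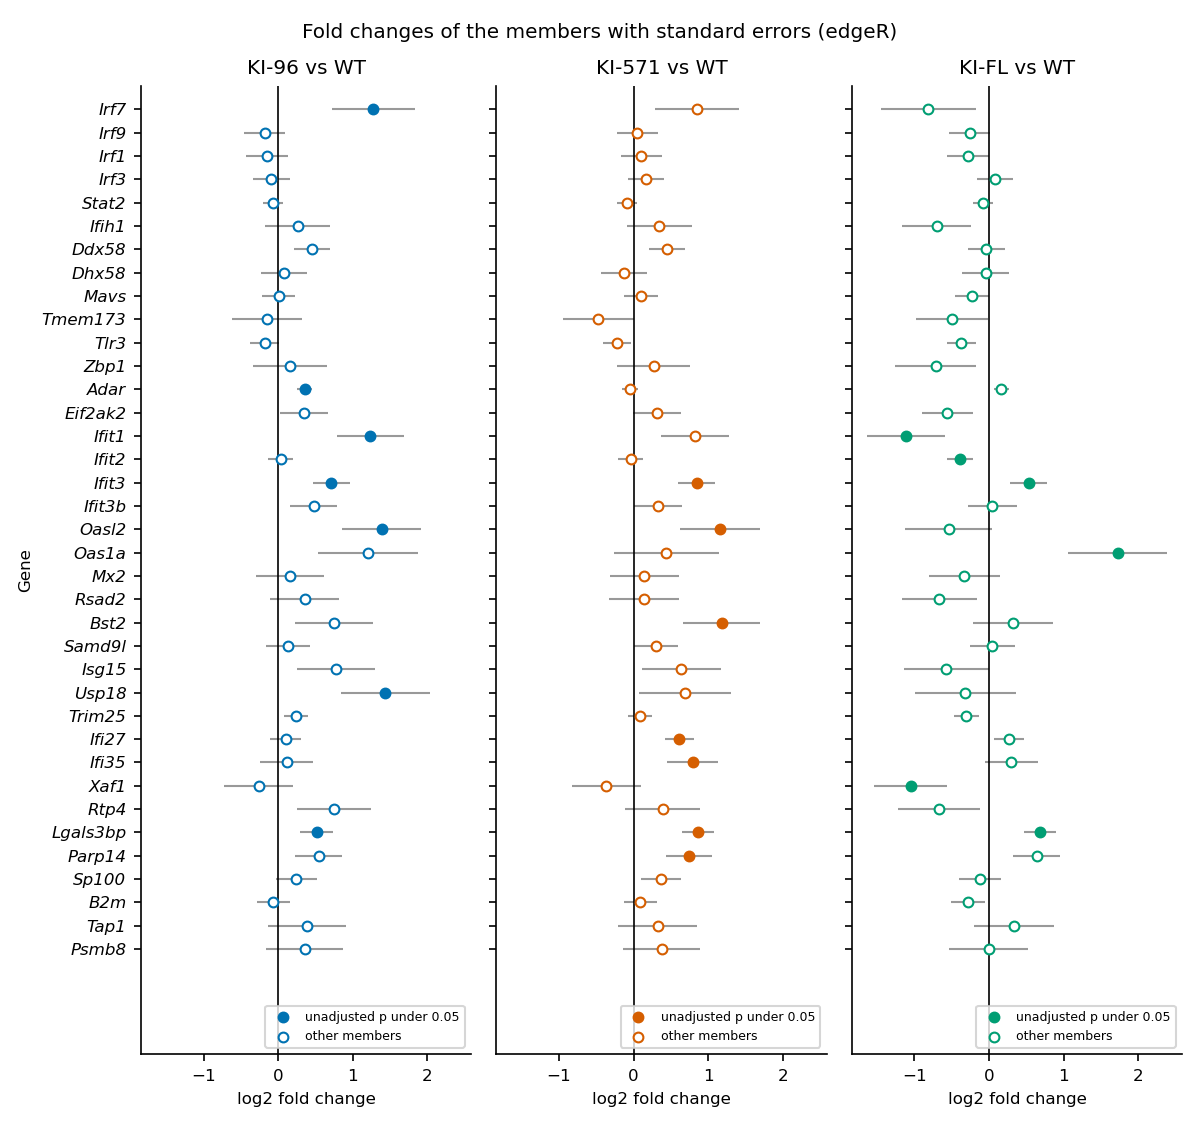
Log2 fold change of each of the 37 genes in KI-96, in KI-571 and in KI-FL mice against WT from edgeR, with bars of 1 standard error. Filled points have an unadjusted p under 0.05 and none passed after adjustment; in KI-96 29 points and in KI-571 30 points lie to the right of 0, and in KI-FL 25 lie to the left.

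Among the transcription factors, Irf7 had the widest spread of values relative to its level. Irf7 lies on chromosome 7 at 141262706 to 141266481, minus strand (GRCm38, as for all genes below), and IRF7 is the factor that amplifies the interferon response and is itself induced by interferon. Irf7 was at 0.496 to 1.40 CPM in WT mice (median 0.860). In KI-96 replicates 1 to 4 it was at 1.23, 1.57, 1.90 and 3.72 CPM, in KI-571 replicates 1 to 4 at 1.30, 0.833, 2.74 and 1.45 CPM, and in KI-FL replicates 1 to 4 at 0.0664, 1.35, 0.607 and 0 CPM. The value of KI-FL replicate 1 was a single read, and 3 of the 4 KI-96 mice were above the highest WT mouse. The log2 fold change of Irf7 in KI-96 against KI-FL was 2.09 (standard error 0.69, adjusted p = 0.433 in edgeR's quasi-likelihood test), and without KI-FL replicate 4 it was 1.70 (adjusted p = 0.562). Against WT it was 1.28 in KI-96 (adjusted p = 0.649 from edgeR; 0.84 without KI-96 replicate 4 and 0.23 with Xist as a covariate), 0.85 in KI-571 and -0.82 in KI-FL (-0.41 without KI-FL replicate 4). That of KI-571 was 1.20 with the 3 mice with high choroid plexus markers left out. Irf7 shares exonic bases with Phrf1 on the opposite strand, and the strand setting of the counting is not given in the sources used here.

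For the other 4 factors, log2 fold changes against WT lay between -0.18 and 0.16 in KI-96 and in KI-571 mice and between -0.28 and 0.08 in KI-FL mice (-0.23 to 0.15 without KI-FL replicate 4). Stat2 and Irf9 encode subunits of ISGF3, and Stat2 had log2 fold changes of -0.07, -0.09 and -0.08 in KI-96, in KI-571 and in KI-FL mice. Irf3, which responds to MAVS and STING without being induced itself, had log2 fold changes of -0.09, 0.16 and 0.08. For Irf1, a factor induced early by interferon gamma, they were -0.15, 0.10 and -0.28, and for Irf9 -0.18, 0.05 and -0.26. For these 4 genes the smallest adjusted p from edgeR against WT was 0.634, for Irf1 in KI-FL mice. Leaving out the 3 mice with high choroid plexus markers gave KI-571 values of -0.33 for Irf1, -0.05 for Irf3, 0.08 for Irf9 and -0.105 for Stat2. Irf9 shares exonic bases with Rnf31, Irf1 with Gm17334 and Irf3 with Bcl2l12.

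Of the 9 sensors and their adaptors, 7 had higher means in KI-96 than in WT (median log2 fold change 0.16), 5 did in KI-571 (0.10) and 1 did in KI-FL (-0.37). With Xist as a covariate the KI-96 median was -0.13 with 3 higher, and without KI-FL replicate 4 the KI-FL median was -0.23 with 3 higher. The KI-571 median was 0.05 with 5 higher once the 3 mice with high choroid plexus markers were left out. Adar had the smallest p. Adar lies on chromosome 3 at 89715022 to 89753446, plus strand. ADAR keeps the double-stranded RNA of the cell from being sensed as foreign. It was at 111 to 151 CPM in WT mice (median 124). In KI-96 replicates 1 to 4 it was at 159, 162, 186 and 137 CPM, in KI-571 replicates at 146, 113, 120 and 108 CPM and in KI-FL replicates at 120, 148, 152 and 146 CPM. KI-96 replicates 1, 2 and 3 were above the highest WT mouse, and the KI-571 and WT ranges overlapped. Adar had a log2 fold change of 0.36 in KI-96 against WT (standard error 0.11, adjusted p = 0.552 in edgeR's quasi-likelihood test) and 0.40 in KI-96 against KI-571 (standard error 0.12, adjusted p = 0.519). With Xist as a covariate the first was 0.19 and the second 0.22, both with an adjusted edgeR p of 1. Adar shares exonic bases with Chrnb2, the beta-2 nicotinic receptor subunit on the opposite strand, and whether reads of Chrnb2 were counted on Adar was not tested.

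The helicases that bind viral RNA in the cytosol are encoded by Ddx58 (RIG-I), Ifih1 (MDA5) and Dhx58 (LGP2). Ddx58 had log2 fold changes of 0.45, 0.44 and -0.04 in KI-96, in KI-571 and in KI-FL mice against WT, Ifih1 0.26, 0.34 and -0.70, and Dhx58 0.08, -0.13 and -0.05. Mavs, their adaptor on mitochondria, had 0.005, 0.10 and -0.23. Tmem173, which encodes STING, the adaptor of DNA sensing, had -0.15, -0.47 and -0.50. For Tlr3, the endosomal receptor of double-stranded RNA, the values were -0.18, -0.22 and -0.37, and for Zbp1, which binds Z-form nucleic acids, 0.16, 0.27 and -0.72. Eif2ak2 encodes PKR, a kinase that stops translation when it binds double-stranded RNA, and had 0.35, 0.32 and -0.56. Against KI-FL, Eif2ak2 had log2 fold changes of 0.91 in KI-96 (adjusted p = 0.521 from edgeR) and 0.875 in KI-571 (adjusted p = 0.506), and without KI-FL replicate 4 these were 0.58 (adjusted p = 0.666) and 0.54 (adjusted p = 0.779). Ifih1, Tmem173 and Zbp1 had no reads in KI-FL replicate 4, while replicates 1 to 3 had 31 to 45, 31 to 63 and 6 to 7 counts. Without this mouse the KI-FL log2 fold changes against WT were -0.29 for Ifih1, -0.08 for Tmem173, -0.31 for Zbp1, -0.23 for Eif2ak2, 0.13 for Ddx58, -0.30 for Dhx58, 0.035 for Mavs and -0.54 for Tlr3. Leaving out the 3 mice with high choroid plexus markers gave KI-571 values of 0.05 for Ddx58, 0.47 for Ifih1 and -0.08 for Dhx58. They were -0.04 for Mavs, -0.54 for Tmem173, -0.29 for Tlr3, 0.11 for Zbp1 and 0.29 for Eif2ak2.

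Antiviral effectors were the group with the most members. In KI-96 mice the 10 tested effectors all had higher means than in WT, with a median log2 fold change of 0.59, as had in KI-571 mice 9 of 10 (0.38) and in KI-FL mice 5 of 10 (-0.15). Without KI-96 replicate 4 it was 8 of 10 in KI-96 (0.31), with Xist as a covariate also 8 of 10 (0.44), and without KI-FL replicate 4 it was 4 of 10 in KI-FL (-0.14). In KI-571 it was 9 of 10 (0.23) with the 3 mice with high choroid plexus markers left out. None passed after adjustment. Oas1a is among the 10 effectors and reached 10 or more counts in 6 mice, of which KI-96 replicates 2, 3 and 4 are part. It would not have passed the count filter without the KI-96 mice, so its higher mean there is not independent of the filter. Ifit1, on chromosome 19 at 34640871 to 34650009, plus strand, encodes a protein that binds viral RNA lacking the cap methylation of the host. It was at 1.06 to 1.95 CPM in WT mice (median 1.44). In KI-96 replicates 1 to 4 Ifit1 was at 2.52, 1.44, 4.72 and 5.09 CPM, in KI-571 replicates at 2.07, 1.31, 2.96 and 4.03 CPM, and in KI-FL replicates at 0.996, 0.713, 0.960 and 0 CPM. In KI-96 and in KI-571, 3 mice each were thus above the highest WT mouse, and all 4 KI-FL mice were below the lowest. Ifit1 was the only member whose KI-FL mice did not overlap with WT, where 5.26% of all genes did not overlap in either direction.

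The log2 fold change of Ifit1 was 2.35 in KI-96 against KI-FL (standard error 0.57, adjusted p = 0.240 in edgeR's quasi-likelihood test) and 1.94 in KI-571 against KI-FL (standard error 0.57, adjusted p = 0.322). Without KI-FL replicate 4, with no reads of Ifit1, these were 1.95 (adjusted p = 0.350 from edgeR) and 1.53 (adjusted p = 0.423). With DESeq2 the adjusted p of Ifit1 was 0.00414 and 0.0376, and 0.205% and 0.475% of all genes were called in these comparisons. In the test of any difference DESeq2 gave Ifit1 an adjusted p of 0.0031 and Lgals3bp 0.0329, with 2.33% of all genes called. Against WT the log2 fold changes of Ifit1 were 1.24 in KI-96, 0.82 in KI-571 and -1.12 in KI-FL, the last being -0.705 without KI-FL replicate 4. That of KI-96 was 0.98 without KI-96 replicate 4 and 0.97 with Xist as a covariate. The adjusted p from edgeR was 0.623 in KI-96, 0.733 in KI-571 and 0.285 in KI-FL.

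**Figure D4:**
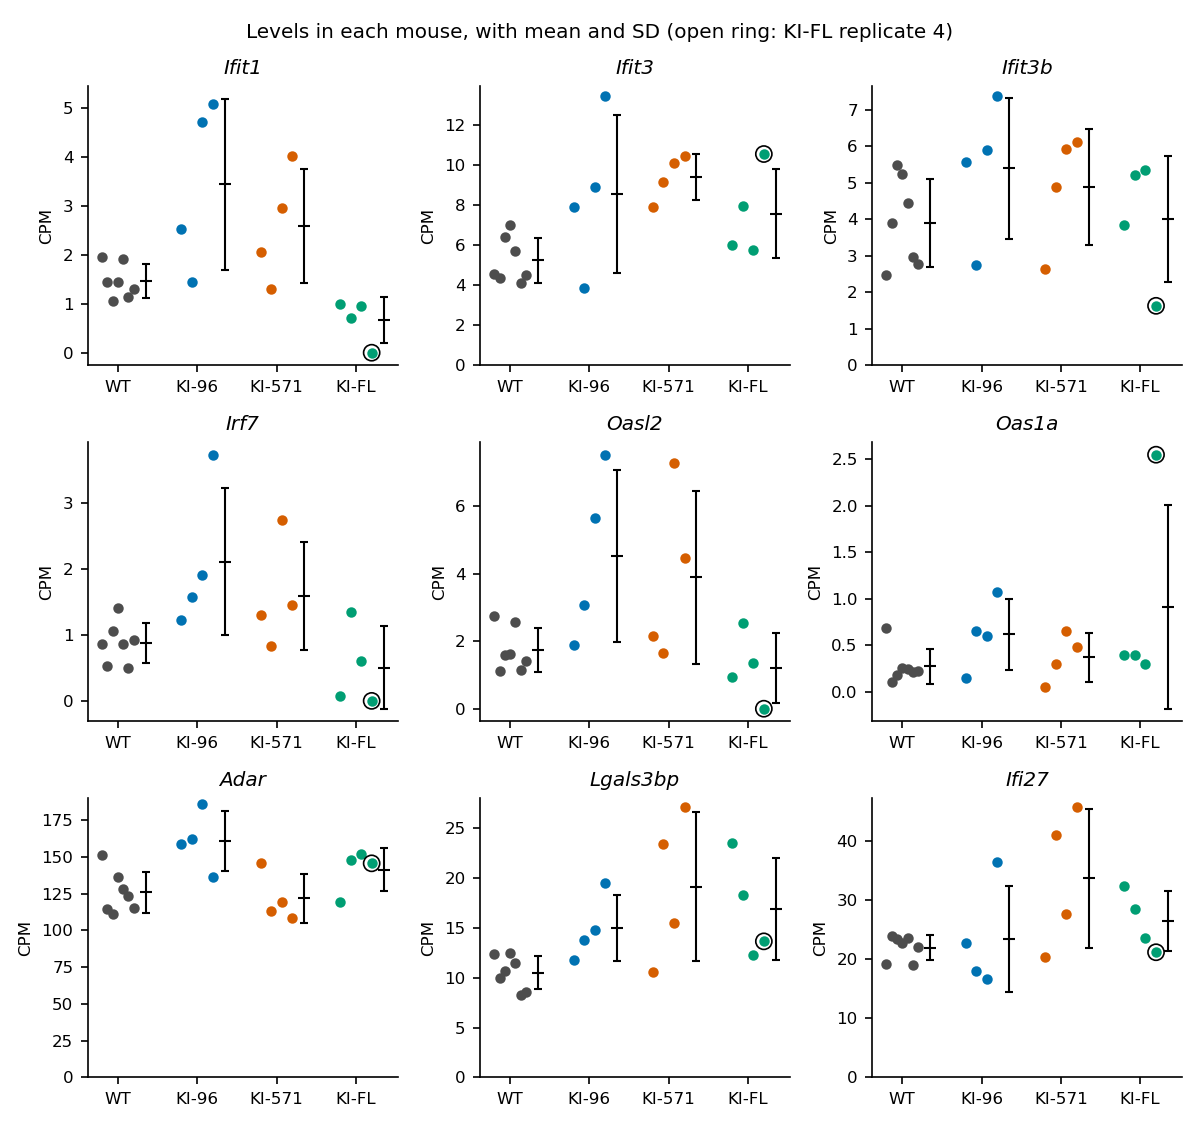
CPM of 9 genes in each mouse, by genotype, with the mean and SD beside the points and a ring around KI-FL replicate 4. Ifit1 has all KI-FL mice below the WT mice, Ifit3 all KI-571 mice above them, and the high Oas1a mean of KI-FL rests on the ringed mouse.

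Ifit3 lies on chromosome 19 at 34583531 to 34588731, plus strand. It was at 4.11 to 7.01 CPM in WT mice (median 4.59). In KI-96 replicates 1 to 4 it was at 7.94, 3.86, 8.95 and 13.5 CPM, in KI-571 replicates at 7.93, 9.16, 10.1 and 10.5 CPM and in KI-FL replicates at 6.04, 7.996, 5.76 and 10.6 CPM. All 4 KI-571 mice were above every WT mouse, which held for no other member, while 1.54% of all genes did not overlap between KI-571 and WT. Ifit3 had a log2 fold change of 0.84 in KI-571 against WT (standard error 0.25, adjusted p = 0.249 in edgeR's quasi-likelihood test) and 0.71 in KI-96 against WT (standard error 0.25, adjusted p = 0.584), the latter being 0.40 without KI-96 replicate 4 and 0.64 with Xist as a covariate. In KI-FL it was 0.53 against WT, and 0.33 without KI-FL replicate 4. No member of KI-96 was apart from WT in all 4 mice, against 1.24% of all genes. With only the KI-571 and WT mice in the model, the adjusted edgeR p of Ifit3 was 0.0489. Of the 17908 genes tested in that fit 55 were called, against 6 of 18521 with all mice.

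Ifit3b, the near-identical copy on the plus strand of chromosome 19 at 34607970 to 34613401, was at 2.47 to 5.49 CPM in WT mice (median 3.90). It was at 5.56, 2.75, 5.91 and 7.36 CPM in KI-96 replicates 1 to 4, at 2.64, 4.88, 5.92 and 6.12 CPM in KI-571 replicates and at 3.85, 5.22, 5.36 and 1.63 CPM in KI-FL replicates. The WT range overlapped with that of each KI genotype. In KI-FL replicate 4 Ifit3 was at its highest KI-FL level and Ifit3b at its lowest, and how the reads of the copies were divided was not tested. Ifit2, which also binds RNA, had log2 fold changes of 0.03, -0.04 and -0.39 in KI-96, in KI-571 and in KI-FL mice (-0.32 without KI-FL replicate 4).

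Of the oligoadenylate synthetase family, Oasl2 and Oas1a passed the filter and Oas2 did not. Oasl2, on chromosome 5 at 114896936 to 114912234, plus strand, encodes a synthetase-like protein and was at 1.12 to 2.75 CPM in WT mice (median 1.59). It was at 1.88, 3.07, 5.64 and 7.53 CPM in KI-96 replicates 1 to 4, at 2.16, 1.67, 7.29 and 4.46 CPM in KI-571 replicates and at 0.929, 2.53, 1.36 and 0 CPM in KI-FL replicates. The highest mice were again replicates 3 and 4 of KI-96 and of KI-571. The log2 fold change of Oasl2 in KI-571 against KI-FL was 1.70 (standard error 0.65, adjusted p = 0.462 in edgeR's quasi-likelihood test), and 1.29 without KI-FL replicate 4 (adjusted p = 0.656). Against WT it was 1.39 in KI-96, 1.16 in KI-571 and -0.54 in KI-FL, and -0.13 in KI-FL without KI-FL replicate 4. In KI-96 it was 1.02 without KI-96 replicate 4 and 0.415 with Xist as a covariate.

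Oas1a, on chromosome 5 at 120896256 to 120907521, minus strand, makes the messenger that activates RNase L. It was at 0.107 to 0.688 CPM in WT mice (median 0.229). It was at 0.144, 0.654, 0.596 and 1.08 CPM in KI-96 replicates 1 to 4, at 0.0480, 0.297, 0.657 and 0.483 CPM in KI-571 replicates and at 0.398, 0.396, 0.303 and 2.55 CPM in KI-FL replicates. The first 3 KI-FL mice lay within the WT range and KI-FL replicate 4 was the highest of all 19 mice. The log2 fold change of Oas1a in KI-FL against WT was 1.73 (standard error 0.66, adjusted p = 0.200 in edgeR's quasi-likelihood test), and 0.42 (adjusted p = 0.818) without KI-FL replicate 4. Several of these values rest on fewer than 10 counts. In the same mouse Mx1 was at 2.68 CPM, against at most 0.910 CPM in any other mouse.

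The remaining effectors are Bst2, Rsad2, Mx2 and Samd9l. Bst2, which tethers budding virus to the cell, was at 1.27 to 2.87 CPM in WT mice and at 2.26, 5.59, 5.81 and 6.66 CPM in KI-571 replicates 1 to 4, with a log2 fold change of 1.18 (adjusted p = 0.577 from edgeR). It was 0.75 in KI-96 and 0.32 in KI-FL (0.74 without KI-FL replicate 4). Rsad2, which encodes viperin, had log2 fold changes of 0.35, 0.14 and -0.67 in KI-96, in KI-571 and in KI-FL mice, and Mx2, annotated as a polymorphic pseudogene, had 0.16, 0.145 and -0.33. For Samd9l, a restriction factor of poxviruses, they were 0.13, 0.30 and 0.04. Without KI-FL replicate 4 the KI-FL values were -0.26 for Rsad2, -0.89 for Mx2 and -0.14 for Samd9l. Leaving out the 3 mice with high choroid plexus markers gave KI-571 values of 0.84 for Bst2, 0.07 for Rsad2, -0.20 for Mx2 and 0.10 for Samd9l.

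The ubiquitin-like protein and its regulators had higher means than WT in KI-96 and KI-571 mice (3 of 3 genes, median log2 fold changes 0.78 and 0.64) and lower means in KI-FL mice (3 of 3, -0.32), with no adjusted p under 0.05. Isg15, which is attached to other proteins like ubiquitin, was at 0.779 to 1.83 CPM in WT mice (median 1.38). It was at 0.866, 1.70, 2.44 and 4.10 CPM in KI-96 replicates 1 to 4, at 0.721, 1.43, 2.90 and 3.33 CPM in KI-571 replicates and at 1.46, 1.19, 0.960 and 0 CPM in KI-FL replicates. Replicates 3 and 4 of KI-96 and KI-571 were above all WT mice and replicates 1 and 2 were not. Usp18, which removes ISG15 and damps the interferon receptor, had log2 fold changes of 1.44 in KI-96 (adjusted p = 0.639 from edgeR), 0.685 in KI-571 and -0.32 in KI-FL mice against WT. Trim25, a ligase that acts on RIG-I, had 0.24, 0.09 and -0.30. Without KI-FL replicate 4 the KI-FL values were -0.16 for Isg15, 0.09 for Usp18 and -0.22 for Trim25, with a median of -0.16. The KI-571 median was 0.42, with 3 of 3 higher, once the 3 mice with high choroid plexus markers were left out. The KI-96 values of Usp18 were 0.89 without KI-96 replicate 4 and 0.56 with Xist as a covariate, and those of Isg15, at 0.78 with all mice, were 0.32 and 0.49. Usp18 shares exonic bases with Gm44148.

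Of the other interferon-stimulated genes, 6 of 7 tested had higher means than WT in KI-96 (median log2 fold change 0.245) and in KI-571 (0.615) and 4 of 7 in KI-FL (0.26). Without KI-96 replicate 4 it was 3 of 7 in KI-96 (-0.11), and without KI-FL replicate 4 it was 4 of 7 in KI-FL (0.29). In KI-571 it was 6 of 7 (0.37) with the 3 mice with high choroid plexus markers left out. The smallest p was that of Lgals3bp, a secreted glycoprotein that binds galectins. Lgals3bp, on chromosome 11 at 118392751 to 118402092, minus strand, was at 8.25 to 12.5 CPM in WT mice (median 10.6). It was at 11.8, 13.8, 14.8 and 19.5 CPM in KI-96 replicates 1 to 4, at 10.6, 23.4, 15.5 and 27.1 CPM in KI-571 replicates and at 23.5, 18.3, 12.2 and 13.6 CPM in KI-FL replicates. All but 1 mouse of each KI genotype were above the highest WT mouse. Lgals3bp had a log2 fold change in KI-571 against WT of 0.865 (standard error 0.215, adjusted p = 0.147 in edgeR's quasi-likelihood test) and in KI-FL against WT 0.69 (standard error 0.22, adjusted p = 0.139). In KI-96 it was 0.52 (adjusted p = 0.642 from edgeR), 0.36 without KI-96 replicate 4 and 0.265 with Xist as a covariate. DESeq2 gave Lgals3bp an adjusted p of 0.0291 in KI-571 against WT, where it called 0.551% of all genes.

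The highest levels of Lgals3bp and Ifi27 in KI-571 and KI-FL were in the 3 mice with high choroid plexus markers. Ifi27, on chromosome 12 at 103434211 to 103440239, plus strand, was at 18.97 to 23.9 CPM in WT mice (median 22.7), at 22.7, 18.1, 16.6 and 36.3 CPM in KI-96 replicates 1 to 4, at 20.3, 41.0, 27.6 and 45.65 CPM in KI-571 replicates and at 32.4, 28.5, 23.5 and 21.15 CPM in KI-FL replicates. Its log2 fold change was -0.52 in KI-96 against KI-571 (standard error 0.23, adjusted p = 0.874 in edgeR's quasi-likelihood test) and 0.615 in KI-571 against WT (adjusted p = 0.338). Without those 3 mice, the log2 fold change of Ifi27 was -0.03 in KI-96 against KI-571 and 0.12 in KI-571 against WT. That of Lgals3bp was 0.31 (adjusted p = 0.818 from edgeR) in KI-571 against WT and 0.47 (adjusted p = 0.223) in KI-FL against WT. All 5 choroid plexus markers had higher means in KI-571 and in KI-FL than in WT, with medians of 3.62 and 1.94 on the log2 scale, and 0 of 5 had an adjusted p under 0.05. KI-96 replicate 4, at 91.4 CPM of these markers, also had high Ifi27 and Lgals3bp. Of the 3 mice with high markers, KI-571 replicate 4 had the highest Ifit1 of its genotype (4.03 CPM), while KI-571 replicate 2 (1.31 CPM) had the lowest of its genotype and KI-FL replicate 1 (0.996 CPM) lay under the WT range. The part of choroid plexus in these differences was not tested beyond leaving out the mice.

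**Figure D5:**
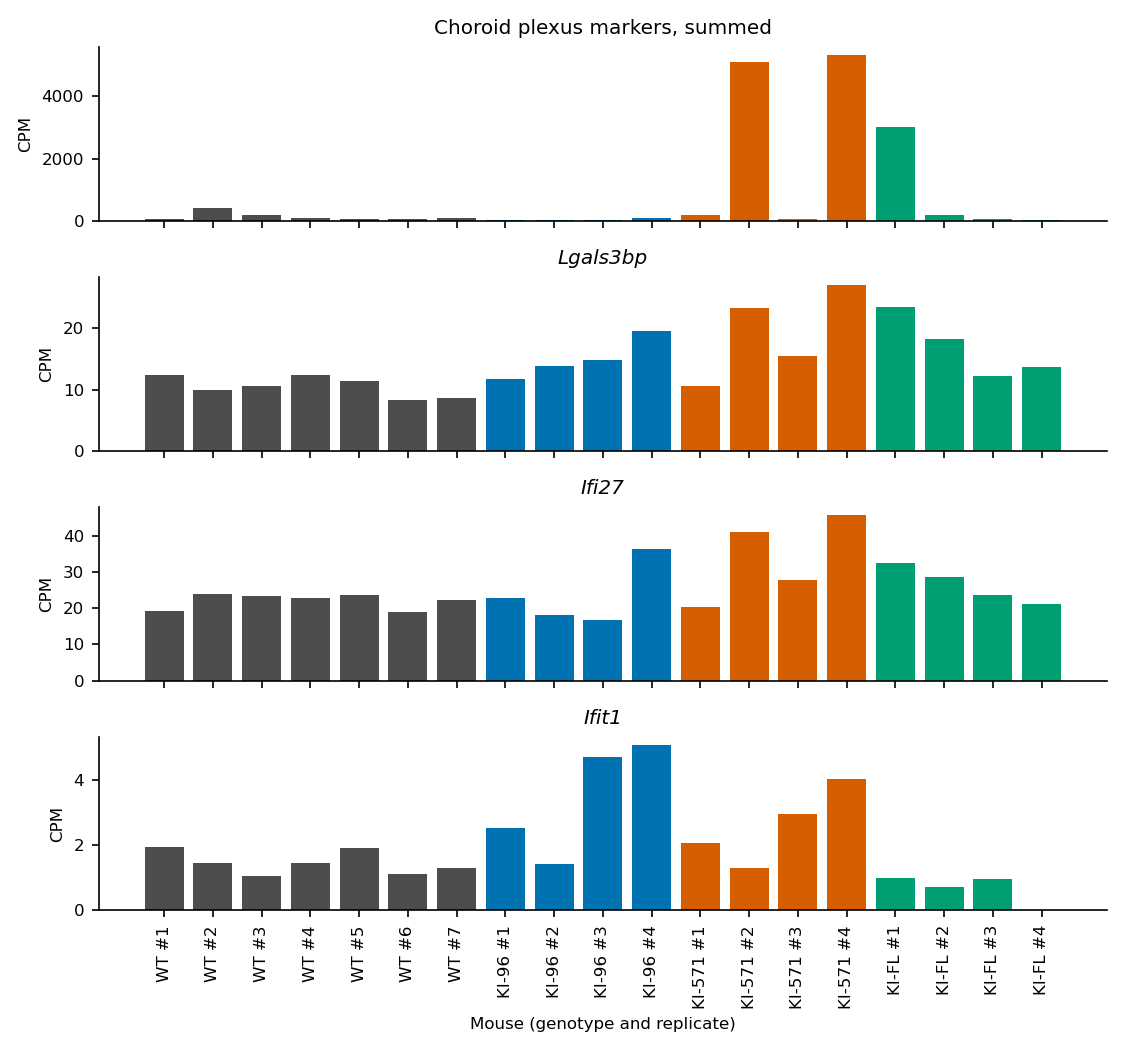
Summed CPM of the 5 choroid plexus markers (top) and CPM of Lgals3bp, Ifi27 and Ifit1 in each of the 19 mice, coloured by genotype. KI-571 replicates 2 and 4 and KI-FL replicate 1 have 3013 to 5311 CPM of the markers and the highest Lgals3bp and Ifi27 of their genotypes, while Ifit1 is highest in KI-96 replicates 3 and 4, where the markers are low, and next in KI-571 replicate 4, where they are high.

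Parp14, an ADP-ribosyltransferase, had log2 fold changes of 0.54, 0.74 and 0.64 in KI-96, in KI-571 and in KI-FL mice (adjusted p from edgeR 0.718, 0.537 and 0.309). Ifi35 had 0.115, 0.80 and 0.30. Rtp4, which limits flavivirus replication, had 0.75, 0.39 and -0.68, and Sp100, a nuclear body protein, 0.245, 0.365 and -0.12. Xaf1, which promotes cell death, had -0.26, -0.37 and -1.05. Without KI-FL replicate 4 the KI-FL values were 0.29 for Parp14, 0.42 for Ifi35, -0.27 for Rtp4, -0.23 for Sp100 and -0.65 for Xaf1, and with Xist as a covariate the KI-96 values were 0.04 for Parp14, 0.16 for Ifi35, 0.37 for Rtp4, -0.05 for Sp100 and -0.35 for Xaf1. In KI-FL replicate 4 Xaf1 had a single read and in WT replicate 7 it was at 16.4 CPM, against 4.25 to 10.6 CPM in the other mice. Ifi44, untested, was at 1.20 CPM in KI-96 replicate 4 and 1.18 CPM in KI-571 replicate 4, and at most 0.488 CPM in the others.

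The members of antigen presentation had median log2 fold changes against WT of 0.36 in KI-96, 0.32 in KI-571 and -0.005 in KI-FL. With Xist as a covariate that of KI-96 was -0.22, and without KI-FL replicate 4 that of KI-FL was 0.41 (B2m -0.18, Tap1 0.75 and Psmb8 0.41). That of KI-571 was 0.0 with the 3 mice with high choroid plexus markers left out (B2m -0.205, Tap1 0.0 and Psmb8 0.49). B2m, the most abundant member, had log2 fold changes of -0.06, 0.09 and -0.29 in KI-96, in KI-571 and in KI-FL mice. Tap1, which carries peptides into the endoplasmic reticulum, had 0.39, 0.32 and 0.33, and Psmb8, a subunit of the immunoproteasome, 0.36, 0.38 and -0.005. Both had no reads in KI-FL replicate 4, while in KI-FL replicates 2 and 3 Tap1 was at 3.88 and 4.80 CPM, above the WT range of 1.44 to 2.87 CPM. Tap1 shares exonic bases with Psmb9 and Psmb8 with Gm20496.

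The KI genotypes were also compared with each other. Between KI-96 and KI-571 the 37 genes differed little, with 21 higher and 16 lower in KI-96 and a median log2 fold change of 0.02. This sign was not stable, since the median was -0.135 without KI-96 replicate 4. With Xist as a covariate, which cannot be told apart from genotype between KI-96 and KI-571, the median was -0.225. Only Adar and Ifi27 had an unadjusted edgeR p under 0.05 (5.41% of the members and 5.51% of all genes). Against KI-FL, 31 of 37 genes were higher in KI-96 (median 0.36) and 32 of 37 in KI-571 (median 0.38), where the median of all genes was 0.02 in both. An unadjusted p under 0.05 was found for 9 members in KI-96 against KI-FL (24.3%; background 8.9%), all higher in KI-96 (background 5.13% in that direction), namely Irf7, Eif2ak2, Ifit1, Ifit2, Oasl2, Isg15, Usp18, Trim25 and Rtp4. In KI-571 against KI-FL it was found for 4 (10.8%; background 8.9%), all higher in KI-571 (background 4.67%), namely Irf7, Eif2ak2, Ifit1 and Oasl2. Without KI-FL replicate 4 the medians were 0.35 and 0.31, with 7 and 4 members under 0.05 (7.6% and 6.71% of all genes). In KI-96 against KI-FL the number was 1 with Xist as a covariate (3.32% of all genes) and 5 without KI-96 replicate 3 (6.67%) or KI-FL replicate 3 (11.1%). In KI-571 against KI-FL it ranged from 1 without KI-571 replicate 3 (7.98%) to 10 without KI-571 replicate 1 (10.7%). Without KI-96 replicate 4 the KI-96 median was 0.15, with 25 genes higher and 12 lower, and with Xist as a covariate it was 0.23 (26 higher, 11 lower). The KI-571 median was 0.31 (27 higher, 10 lower) once the 3 mice with high choroid plexus markers were left out. In that fit 3 members had an unadjusted edgeR p under 0.05 (6.99% of all genes).

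Other genes of the pathway were examined in a list of 67 genes beside the members, of which 58 were tested. None had an adjusted p under 0.05 in any comparison of 2 genotypes. In KI-96 against WT 36 were higher and 22 lower (median log2 fold change 0.055), in KI-571 40 and 18 (0.19) and in KI-FL 32 and 26 (0.04). The 19 tested genes of the group of other effectors, such as guanylate-binding and Schlafen proteins, had medians of 0.375, 0.35 and 0.07 in KI-96, in KI-571 and in KI-FL mice, with 15, 17 and 10 genes higher. The 12 tested genes of ligands, receptors and signalling had medians of 0.02, 0.003 and 0.008, and the 6 tested genes of nucleic acid breakdown -0.05, -0.03 and 0.045. The 11 tested genes of other sensors and adaptors had medians of -0.04, 0.11 and -0.13, with 4, 6 and 4 genes higher. Of the 10 other genes of antigen presentation, 8, 9 and 8 had higher means than WT (medians 0.11, 0.28 and 0.20). Of the interferon genes themselves, only Ifnb1, Ifna4 and Ifng were examined. There were 0 counts of Ifnb1 and Ifna4 in all 19 mice and a single read of Ifng in 1 mouse, which covers transcription at the time of dissection only.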

How the data were processed

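Striatal RNA of 19 mice was sequenced, and the authors deposited whole-number read counts per gene, without normalization. The authors trimmed reads with BBduk, aligned them to GRCm38 with STAR and counted them with HTSeq, as the paper and the submitters' processing notes say. Versions, annotation and strand setting are not given in the sources used here. The paper fitted a covariate that it names 'sac batch' and left out a WT sample as a potential outlier. Neither is named in the labels, so all 7 WT mice were kept and no batch was fitted. The 4 columns of no labelled mouse were not used, and the 5 summary lines of HTSeq stayed out of library sizes. Of these, the lines for reads outside genes, ambiguous reads and reads not uniquely aligned together hold 20.79 to 32.84% of the reads of a mouse.

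Symbols were matched for 54079 of 54232 gene identifiers, and positions and exon lengths were taken from GENCODE mouse release 21 (GRCm38). Counts were scaled by TMM, filtered by filterByExpr (minimum count 10, minimum total 15) and fitted for all 19 mice together in edgeR 4.0.16 (R 4.3.3), each genotype having its own coefficient. The quasi-likelihood F-test was applied to 3 comparisons of a KI genotype with WT, to 3 between KI genotypes and to any difference among the 4 genotypes, with Benjamini-Hochberg adjustment over 18521 genes and 0.05 as the threshold. The common dispersion gave 0.24 as biological coefficient of variation. For log2 CPM a prior count of 2 was used. Total counts of 12669809 to 26388542 per mouse set the precision, and the floor of 3 counts covers counting error only. Mice of a genotype differed by more than sampling noise (chi-square per degree of freedom of at least 8.60), and the labels do not say whether they were littermates.

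The members, the gene lists and the tests were chosen with earlier results of these data known. Each member is named at least once. Values of every mouse are given for members past the threshold (none), for the 2 members with the smallest p in each comparison of 2 genotypes and for Ifit3b. Bst2, Isg15 and single values of other members were added after they were seen. The procedure was tested on simulated data. Alternatives were DESeq2 1.42.0, its size factors, other filters, a threshold of 0.1, Xist as a covariate, only the groups compared, the replicate number as a block, WT replicates 1 to 4 alone and each mouse left out. The alternatives without the 3 mice of high choroid plexus markers, and with WT replicates 1 to 4 and no KI-FL replicate 4, were added later, with the data in view. Transcripts were aligned with Biopython 1.88.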

Additional observations from a re-analysis of the deposited data

Results flagged for a closer look

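Over the members given for every mouse and the mean of the members, 40 groups of mice were examined for a single value far from the others by Dixon's ratio, and 3 were found where chance gives about 2 (1 in 20). Oas1a in KI-FL replicate 4, at a log2 CPM of 1.41, was the highest of its genotype, whose other mice were at -1.29 to -0.989. Ifit1 in the same mouse, at -3.245 and without reads, was the lowest, with the others at -0.29 to 0.14. Oas1a in WT replicate 1 was at -0.33, with the other WT mice at -2.235 to -1.45. WT replicate 1 was also the WT mouse with high Xist, and the part of this in Oas1a was not tested.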

How the results depend on the processing

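No member was called by edgeR in any of the 7 comparisons, and this held under 29 of the 31 alternatives in KI-571 against WT, 30 of 31 in both comparisons with KI-FL mice as the reference, 29 of 30 in the test of any difference and under all alternatives elsewhere. DESeq2 called 1 member in KI-571 against WT, 1 in KI-96 against KI-FL, 1 in KI-571 against KI-FL and 2 in any difference, and with only the groups compared 1 was called in KI-571 against WT. Leaving out each mouse gave 0 calls throughout. Over all genes DESeq2 called 28, 102 and 509 genes in KI-96, in KI-571 and in KI-FL against WT, where edgeR called 5, 6 and 36, and 35, 38 and 88 between KI-96 and KI-571, KI-96 and KI-FL, and KI-571 and KI-FL, where edgeR called 1, 0 and 16, and 431 against 26 for any difference. With only the groups compared, edgeR called 0, 55, 336, 9, 2 and 11 genes in the 6 comparisons in that order, without a filter on low counts 23, 78, 85, 35, 24 and 25, and with each mouse left out in turn 1 to 10, 0 to 46, 0 to 159, 0 to 5, 0 to 9 and 1 to 21. For any difference the last 2 gave 226 and 0 to 63. None of the 12 log2 fold changes of the members with the 2 smallest p in each comparison changed sign, but over all 37 members 20, 9 and 10 had the other sign under at least 1 alternative in KI-96, in KI-571 and in KI-FL against WT. In KI-96 these were 10 with Xist as a covariate, 6 without KI-96 replicate 4 (Ifi27 from 0.10 to -0.20) and 5 without KI-96 replicate 3. In KI-FL these were 5 without KI-FL replicate 4. That of Oas1a in KI-FL against WT ranged from 0.23 to 2.09, that of Lgals3bp in KI-571 against WT from 0.31 to 1.07 and that of Adar in KI-96 against WT from 0.19 to 0.425. The median of the members ranged from 0.053 to 0.34 in KI-96, 0.11 to 0.40 in KI-571 and -0.30 to -0.085 in KI-FL against WT, and in KI-96 against KI-571 it changed sign (-0.225 to 0.12). With 10 or more counts in every mouse, which leaves out members with low counts, the 3 medians against WT were 0.12, 0.13 and -0.085. With the replicate block 0 members were called in all comparisons, and 0, 1, 0, 0, 1 and 9 genes in the 6 comparisons in the same order and 7 for any difference; unadjusted p-values under 0.05 were found for 2, 3, 3, 2, 4 and 1 members and for 2.92, 4.01, 8.06, 4.35, 6.66 and 6.76% of all genes. Same-numbered mice are different animals, and the deviations of 24 same-numbered pairs correlated between -0.13 and 0.29, with 5 over 0.1. The highest was that of KI-96 replicate 4 with KI-571 replicate 4. With 4 mice in each KI genotype, these correlations cannot show whether the numbers follow a batch. Counts of 20 or fewer, as for Irf7, Usp18, Zbp1 and Oas1a in many mice, limit what could be detected.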
